A study of Mus musculus with 11 samples.

Results

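The ATP-binding cassette (ABC) transporters were examined in hippocampal RNA from mice given AC-T chemotherapy and from mice given saline. Members were chosen by gene symbol: the table of 17118 genes held 37 rows whose symbol begins with Abc, a subfamily letter from a to g and a number, and the 36 with a mean of at least 10 counts per library were kept. Abcc3, which was listed at 0 in 9 libraries and at 45 and 46 counts in the other two, fell under that mean. Of the 36, Abcc6 did not pass the filter on low counts, so 35 were tested. By subfamily the members numbered 10 in A, 8 in B, 7 in C, 4 in D, 1 in E, 3 in F and 3 in G.

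The mice were female, of strain C57/BL6J, and 12 weeks old at the start. Each had 8 weekly intraperitoneal injections. AC-T mice got doxorubicin (2 mg/kg) together with cyclophosphamide (50 mg/kg) in the first 4 weeks and paclitaxel (5 mg/kg) in the last 4, and controls got 0.9% saline. Hippocampal tissue was punched (0.2 mm) from frozen coronal slices, labelled as 1 month. The AC-T group here is 5 mice, numbered 501, 502, 503, 600 and 602, and the saline group is 6, numbered 201, 202, 203, 300, 301 and 302; values are listed below in this order. The series states 6 samples a group. The labels name no tumour, so the mice are a model of the drugs alone.

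ABC proteins bind and split ATP to move lipids, drugs, peptides or ions across membranes. Those at the blood-brain barrier, above all P-glycoprotein (encoded in mice by Abcb1a and Abcb1b) and the breast cancer resistance protein (Abcg2), return drugs to the blood, and doxorubicin and paclitaxel are both well-known P-glycoprotein substrates. Other members export cholesterol and phospholipid, carry fatty acids into peroxisomes or work in mitochondria, and subfamilies E and F hold soluble proteins that act in translation and transport nothing.

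Library totals ran from 23389813 to 32121430 counts and did not separate the groups (exact permutation p = 0.242, 2-sided). All 12 hippocampal subfield markers had a value above 0 in every library. Markers of the thalamus and habenula, which lie below the hippocampus, summed to 664 to 941 CPM (counts scaled to 1000000 per library, on normalised library sizes) after AC-T and 1267 to 1837 CPM after saline, and 13 of these 14 were lower in edgeR. This list, like the others, was chosen with earlier results of these data known. Its sums and its count of lower genes are therefore not independent of those results. The labels call every mouse female; Xist, the RNA of the inactive X chromosome, had no counts in saline 300, while the 10 remaining libraries held between 13057 and 22963. The first digit of the mouse number forms a pair of series in each treatment (5 and 6 for AC-T, 2 and 3 for saline). The labels do not explain it, and no series holds both treatments. Mice were housed 4 to a cage and the labels do not say which shared one. The p-values treat the mice as independent, and a shared cage or series could make them too small.

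No ABC transporter gene passed the test between AC-T and saline. In edgeR's quasi-likelihood test, with Benjamini-Hochberg adjustment over all 15353 genes tested and an adjusted p under 0.05 as the threshold, 0 of 35 members were higher and 0 lower, where 4.89% of all genes were higher and 3.58% lower. The group values overlapped for every member, whereas they did not overlap for 7.54% of all genes. An unadjusted p under 0.05 was reached by 8 of the 35 members, against 24.9% of all genes. Of the 35 members, 7 had such a p with a log2 fold change below 0 and 1 with it above 0. Among all 15353 genes the shares were 10.9% below 0 and 14.0% above. The median log2 fold change (AC-T minus saline throughout) was −0.025 over the members and −0.0029 over all genes, and the median size without sign was 0.094 and 0.11. Of the 35 values, 15 were above 0 and 20 below. The log2 fold changes of Abca9, Abcc4 and Abcd3, at most 0.0024, lay below 0 under each of 3 other scalings, which left 11 or 12 members above 0.

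The fit also bounds how large a difference these libraries could hide. For 33 of the 35 members the 95% interval of the fold change lay within 1.5-fold in both directions. Abca4 and Abca6, whose levels varied most between mice, were the exceptions. The median distance from a fitted log2 fold change to the end of its interval was 0.15. The smallest adjusted p values belonged to Abcb1a (0.0685), Abce1 (0.0833), Abcd2 (0.0967) and Abcg4 (0.127); the log2 fold change was above 0 for Abce1 and below 0 for the other three. With DESeq2 these 4 genes, and no other member, passed (4 of 36 members with an adjusted p, against 16.6% of all genes). Without saline 300, 0 of the 35 passed in edgeR, and the adjusted p values of the 4 were 0.120, 0.153, 0.123 and 0.123. Over all genes, 426 were higher in that fit, against 751 with every library, and the number lower moved by at most 1.5-fold.

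**Figure D1:**
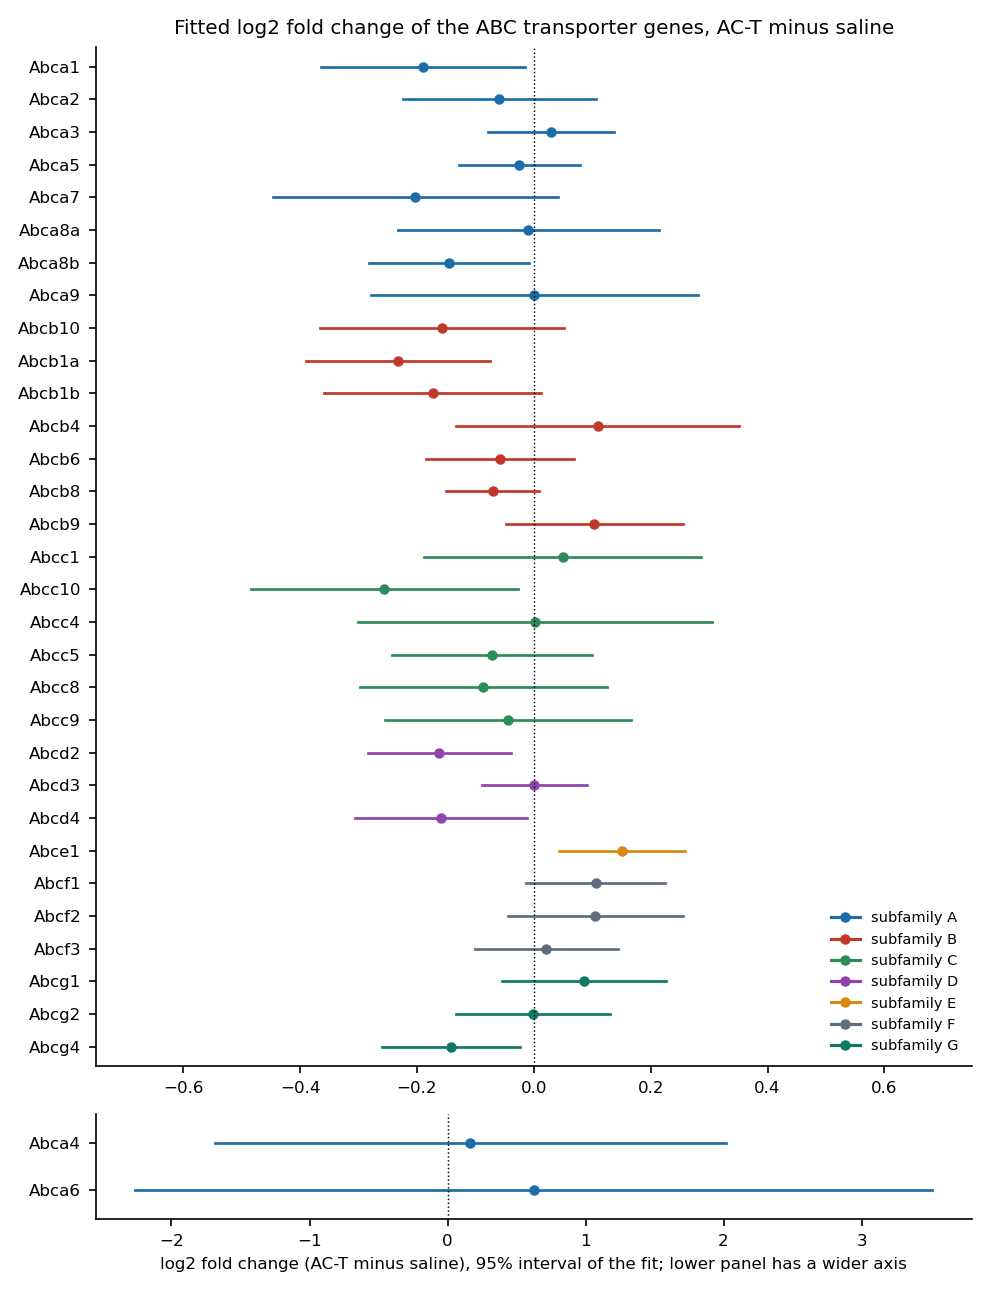
Fitted log2 fold change of 33 of the 35 tested ABC transporter genes (points) with the 95% interval of the fit (lines), in order of subfamily; the lower panel has a wider axis for Abca4 and Abca6. Most points lie close to 0, with Abcc10, Abcb1a and Abca7 furthest below 0 in the upper panel and Abce1 furthest above.

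The genes of P-glycoprotein lie close together on chromosome 5 and are near-copies of each other, which bears on how reads were divided between them. Of 3819 aligned coding bases of Abcb1a and Abcb1b, 88.1% were identical, and the longest stretch without a difference ran for 338 bases. Abcb1a and the phospholipid flippase gene Abcb4 shared 76% of aligned coding bases and a longest run of 110. A read that falls inside the shared run fits both genes and is divided by probability in the quantification, so the values of the pair are not fully separate. To show where they diverge, the window below ends 90 bases into that run, from GENCODE M21 transcripts, 5′ to 3′ on the coding strand. It covers coding bases 1297 to 1446 of Abcb1a and 1306 to 1455 of Abcb1b, and capitals mark the 5 bases that differ:
Abcb1a: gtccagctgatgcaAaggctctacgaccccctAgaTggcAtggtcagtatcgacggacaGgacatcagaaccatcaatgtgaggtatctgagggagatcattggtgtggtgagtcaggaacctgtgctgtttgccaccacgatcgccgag
Abcb1b: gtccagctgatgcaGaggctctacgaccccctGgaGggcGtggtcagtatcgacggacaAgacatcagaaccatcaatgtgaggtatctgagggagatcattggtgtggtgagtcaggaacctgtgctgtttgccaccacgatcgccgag

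Abcb1a was the more abundant of the pair. Per kilobase of the longest transcript its level was 6.32 to 8.98 times that of Abcb1b within a library, with a median of 8.00. The promoter windows of this pair are shown because 2 genes so alike in coding sequence stood at such different levels. They come from RefSeq on build GRCm38.p6, an older build than the GRCm39 named for these data, and run from 250 bases before the annotated start to 50 after it, both on the plus strand: chr5:8566841-8567140 for Abcb1a and chr5:8797897-8798196 for Abcb1b. Capitals mark the CCAAT box (CCAAT), the GC box (GGGCGG) and the TATA box (TATAAA), searched on both strands:
Abcb1a: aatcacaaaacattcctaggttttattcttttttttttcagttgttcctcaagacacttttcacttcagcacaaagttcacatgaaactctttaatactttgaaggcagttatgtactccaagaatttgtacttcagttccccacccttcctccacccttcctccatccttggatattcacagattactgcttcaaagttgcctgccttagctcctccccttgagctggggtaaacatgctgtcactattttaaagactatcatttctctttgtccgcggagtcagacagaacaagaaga
Abcb1b: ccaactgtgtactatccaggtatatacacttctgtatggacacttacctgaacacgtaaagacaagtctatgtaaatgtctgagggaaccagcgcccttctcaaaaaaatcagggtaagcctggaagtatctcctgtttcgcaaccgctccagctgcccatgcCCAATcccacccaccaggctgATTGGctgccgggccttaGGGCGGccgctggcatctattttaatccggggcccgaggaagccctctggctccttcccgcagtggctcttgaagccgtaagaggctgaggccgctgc

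The Abcb1b window held 2 CCAAT boxes, 1 on each strand, and 1 GC box, and the Abcb1a window held none of the 3 motifs, which says only that these letters are not in this window. Of all 32851 windows of the table, 37.4% held a CCAAT box, 35.7% a GC box and 13.6% a TATA box. Windows were matched for 25 of the 36 members (31 windows, since some genes have several starts); 8 of the 31 held a CCAAT box, 20 a GC box and 5 a TATA box. Base composition was 40.3% G and C in the Abcb1a window and 55% in that of Abcb1b.

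Among the drug efflux pumps, Abcb1a had the smallest p. It stood at 39.9, 38.0, 41.9, 30.7 and 36.9 CPM in AC-T 501, 502, 503, 600 and 602, and at 40.7, 46.4, 43.8, 47.1, 42.2 and 44.2 CPM in saline 201, 202, 203, 300, 301 and 302. Only AC-T 503 reached into the saline range, above saline 201. The means were 37.5 ± 4.23 CPM after AC-T and 44.0 ± 2.44 after saline (SD, n = 5 and 6), and the fold change was 0.851 with a 95% interval of 0.763 to 0.949 (edgeR adjusted p = 0.0685). Abcb1a passed in 3 of 29 alternative fits and not in the other 26. Without AC-T 503 the adjusted p in edgeR was 0.0454, with library totals as the scaling 0.0437, and with DESeq2 0.0109. The log2 fold change was below 0 in all 29, from −0.39 to −0.080.

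Markers of brain endothelium, the cells that carry P-glycoprotein, moved with Abcb1a. All 13 endothelial markers had a log2 fold change below 0 (median −0.19, from −0.30 to −0.038), and 1 of 13, the adhesion molecule gene Pecam1, was lower in edgeR. Other lists leaned the same way: the log2 fold change was below 0 for 8 of 10 astrocyte markers (median −0.19, with Aqp4 and S100b lower), 9 of 10 mural, 7 of 7 meningeal and 5 of 5 blood markers (median −0.79). The endothelial markers had a summed level of 338 to 407 CPM after AC-T and 394 to 433 CPM after saline, and none was at 0 in any library. AC-T 600 had the lowest sum, 338 CPM, and the lowest Abcb1a, whereas saline 300 had the highest of both (433 CPM for the sum). Across the 11 libraries Pearson's r between Abcb1a and the endothelial sum was 0.854 (permutation p = 0.00051, adjusted p = 0.0346 over 385 relations), Spearman's rho was 0.74 (permutation p = 0.0127, adjusted 0.231), and r was 0.78 without AC-T 502 and 600. Treatment was ignored in the permutations, so these pooled values also carry the difference between the groups. Within AC-T r was 0.79, and within saline, where the endothelial sum spans only 394 to 433 CPM, it was 0.34. The difference between these values was not tested. Abcb1a also had an r within AC-T of 0.90 with mural, 0.85 with astrocyte and −0.91 with choroid plexus markers. Over the 11 libraries, r with those lists was 0.61, 0.47 and −0.25. Abcd2 and Abca1 had an r of 0.73 and 0.71 with the endothelial sum over the 11 libraries, and Abcg2 had 0.11. Their permutation adjusted p values were 0.174, 0.185 and 0.929. Within saline r was −0.12 for Abcd2, 0.73 for Abca1 and 0.75 for Abcg2, and within AC-T it was 0.71, 0.50 and −0.089. With the endothelial score as covariate the log2 fold change of Abcb1a was −0.10 ± 0.11 (SE, edgeR adjusted p = 0.827), and with the thalamic score it was −0.080 ± 0.16 (adjusted p = 0.935). Of all genes, 4 were higher and 2 lower in the endothelial fit, and 1 and 0 in the thalamic fit. The thalamic score did not overlap between groups, and only AC-T 503 reached the saline range of the endothelial score. These fits therefore cannot separate a score from treatment. In bulk tissue fewer cells of a type and less RNA per cell cannot be told apart.

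**Figure D2:**
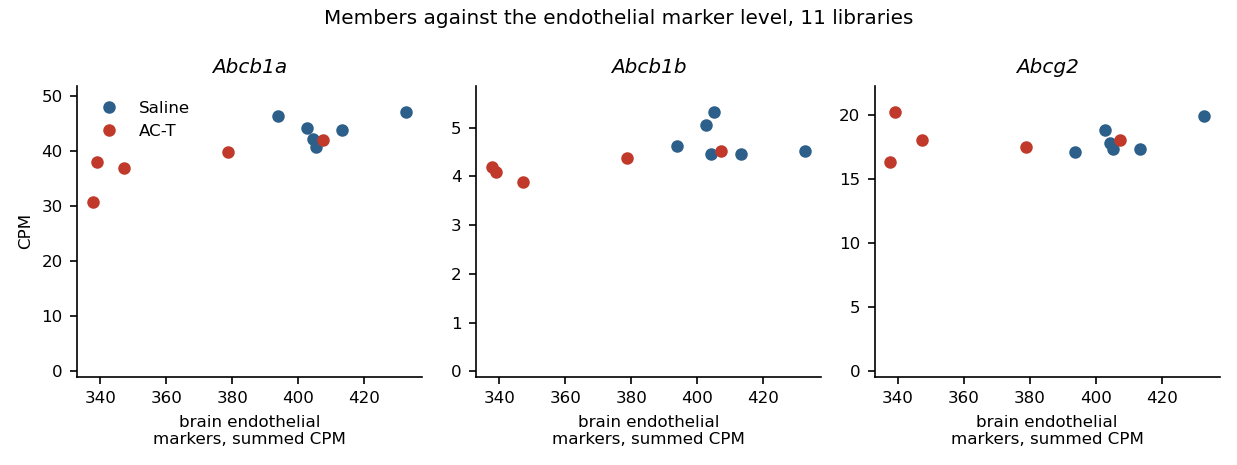
CPM of Abcb1a, Abcb1b and Abcg2 (vertical axes, including 0) against the summed CPM of 13 endothelial markers (horizontal axes), 1 point per library. The 4 libraries of lowest endothelial level are all AC-T and are the 4 lowest for Abcb1a, whereas Abcg2 runs from 16.3 to 20.2 CPM among them.

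Abcb1b, the second P-glycoprotein gene, had mean levels of 4.21 ± 0.243 CPM (AC-T) and 4.74 ± 0.36 CPM (saline), a fold change of 0.887 (0.780 to 1.01; edgeR adjusted p = 0.231). It ran from 3.89 to 4.52 CPM after AC-T and from 4.46 to 5.32 CPM after saline, with AC-T 503 inside the saline range. Abcg2 had nearly the same mean in both groups. Its values were 17.5, 20.2, 18.1, 16.3 and 18.0 CPM in the AC-T libraries and 17.3, 17.1, 17.3, 19.9, 17.8 and 18.8 CPM in the saline libraries, in the mouse order given above, and the ranges lay almost wholly over each other. The fold change was 0.999, with an interval from 0.912 to 1.09 (edgeR adjusted p = 0.991), so a change of 1.5-fold in either direction lies outside it. Whether Abcb1a and Abcg2 differ in their response was not tested.

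The multidrug resistance proteins of subfamily C, which export drugs and conjugated metabolites, had no member that passed. Abcc5, an exporter of cyclic nucleotides and nucleotide analogues, was the most abundant of them, with means of 162 ± 20.4 CPM (AC-T) and 171 ± 10.4 CPM (saline; fold change 0.952, 0.845 to 1.07). Abcc10 had the lowest fold change of all members tested, 0.837 (0.715 to 0.981). It ran from 9.20 to 11.3 CPM after AC-T (median 9.85) and from 10.2 to 15.4 CPM after saline (median 11.5), and the high end was saline 202 (edgeR adjusted p = 0.151). Abcc1 had a fold change of 1.04 (0.878 to 1.22) and Abcc4 of 1.00 (0.812 to 1.24). Abcc6 was listed at 0 in 7 libraries and at 55 to 67 counts in saline 201, 202 and 301 and AC-T 602, with no value between. Abcc2 and Abcb11 were not among the 37 rows with matching symbols. Over the 7 efflux pumps tested, 2 log2 fold changes were above 0 and 5 below, with a median of −0.071; Abcc4 was below 0 as well under the other scalings.

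**Figure D3:**
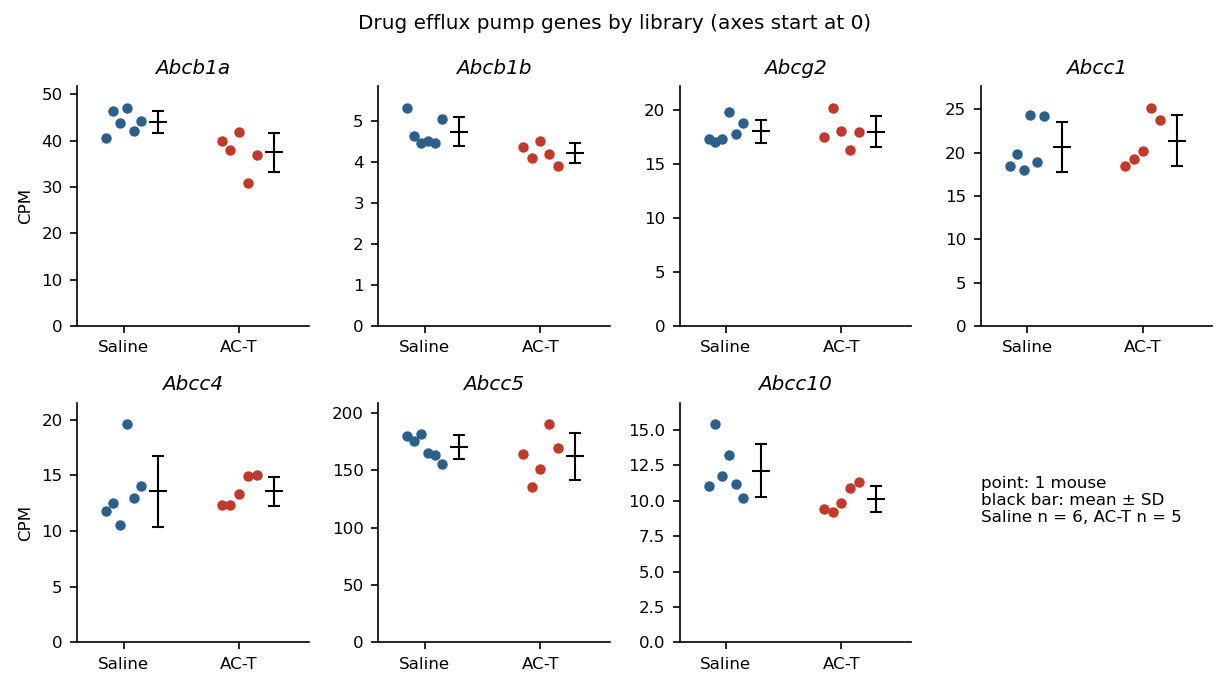
CPM of the 7 tested drug efflux pump genes in each library (points), with mean and SD beside them (black), saline n = 6 and AC-T n = 5; axes start at 0. The groups overlap for every gene, least for Abcb1a and Abcb1b.

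Abca4, Abcc1 and Abcc4 were high in the libraries of either treatment that held much RNA of choroid plexus markers. The choroid plexus, the tissue that makes cerebrospinal fluid, lies against the hippocampus. Its 8 markers, of which 0 passed the test and 5 were at 0 in at least 1 library, summed to 81.7, 1353, 1393, 5518 and 2290 CPM in the AC-T libraries and 1234, 553, 22.7, 5640, 104 and 2977 CPM in the saline libraries. Abca4, a flippase known from photoreceptors, was listed at 0 in AC-T 501 and stood at 6.99, 7.52, 24.4 and 10.98 CPM in the other AC-T libraries. In saline it stood at 5.03, 3.94, 2.79, 26.2, 2.24 and 13.2 CPM. The libraries of either treatment with the highest choroid level, AC-T 600 and saline 300, had the highest Abca4, and r was 0.994 (permutation p = 1e-05, the smallest these 100000 permutations can give, adjusted p = 0.00385) with rho 0.973 (adjusted p = 0.00385). Without those 2 libraries r was 0.975, and it was 0.993 within saline and 0.997 within AC-T.

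Abcc1, the first multidrug resistance protein, showed the same pattern with a smaller range. It stood at 18.4, 19.2, 20.2, 25.2 and 23.8 CPM in the AC-T libraries and 18.4, 19.9, 18.0, 24.3, 19.0 and 24.2 CPM in the saline libraries. The 4 libraries with the most choroid marker RNA (saline 300 and 302, AC-T 600 and 602) were the 4 highest for Abcc1. Its r was 0.89 (permutation adjusted p = 0.0154), rho 0.92 (adjusted p = 0.0231), r without AC-T 600 and saline 300 0.88, and r within saline 0.89 and within AC-T 0.90. For Abcc4, which exports cyclic nucleotides and drugs, r was 0.84 (permutation adjusted p = 0.0346) and rho 0.83 (adjusted p = 0.148), with r of 0.72 without those 2 libraries; saline 300 was highest at 19.6 CPM and saline 203 lowest at 10.5. With the choroid score as covariate, a fit chosen after these relations were seen, the log2 fold changes of Abca4, Abcc1 and Abcc4 were −0.38 ± 0.49, 0.0024 ± 0.076 and −0.041 ± 0.11 (SE; edgeR adjusted p = 0.688, 0.991 and 0.856).

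**Figure D4:**
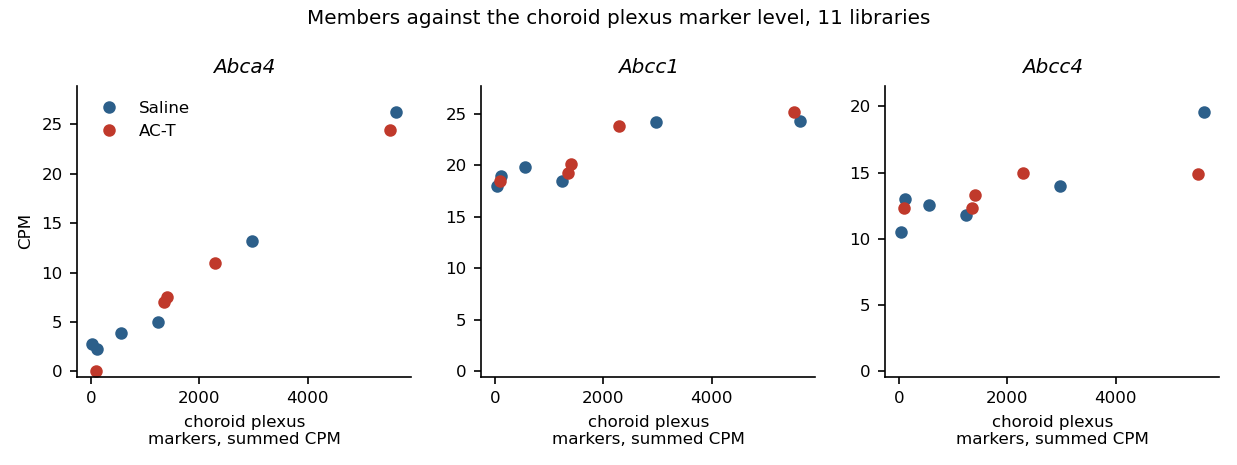
CPM of Abca4, Abcc1 and Abcc4 (vertical axes, including 0) against the summed CPM of 8 choroid plexus markers (horizontal axes), 1 point per library. Abca4 runs from 0 to 26.2 CPM along the axis with both treatments on 1 line, and Abcc1 from 18.0 to 25.2 CPM.

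These relations were sought for 35 members against each of 11 marker lists, 385 in all. The thalamic list was left out because its groups do not overlap. In 3 relations both adjusted p values were under 0.05: Abca4 and Abcc1 with the choroid plexus, and Abcg1 with mural cell markers, where the sign was negative (r −0.85, permutation adjusted p = 0.0346; rho −0.94, adjusted p = 0.0231). For Abcg1 r was −0.87 within saline, −0.89 within AC-T and −0.84 without AC-T 600 and saline 203. Abca1 had an r of −0.89 with the summed neuron markers (permutation adjusted p = 0.0346), a rho of −0.76 (adjusted p = 0.209) and an r of −0.67 without AC-T 502 and saline 300. These values for Abca1 pool both treatments and also carry the difference between the groups. Mural markers summed to 308 to 413 CPM after AC-T and 331 to 426 after saline, and neuron markers to 5852 to 7018 and 4427 to 6210 CPM, with none at 0 in any library.

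Subfamily A, large transporters of lipids, had 4 log2 fold changes above 0 and 6 below among its 10 members (median −0.017). Abca2, which handles sterols and sphingolipids in myelin-forming cells, had the highest level of all members per length, 39.5 CPM per kilobase. It averaged 311 ± 39.2 CPM (AC-T) and 324 ± 14.8 CPM (saline; fold change 0.960, 0.856 to 1.08). Abca1, the exporter that loads cholesterol onto apolipoproteins, was at 41.5, 32.7, 38.6, 38.9 and 37.4 CPM after AC-T and at 41.3, 36.8, 40.7, 49.7, 43.4 and 46.7 CPM after saline. Its groups overlapped over most of the AC-T range, and the fold change was 0.877 (0.777 to 0.990; edgeR unadjusted p = 0.0356, adjusted 0.164). Against saline series 3 the log2 fold change of Abca1 was −0.30 (adjusted p = 0.0517) and against series 2 −0.065 (adjusted p = 0.664).

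Abca7, a phospholipid exporter whose human counterpart carries risk variants for Alzheimer's disease, stood at 22.2 ± 2.52 and 25.6 ± 4.13 CPM (fold change 0.869, 0.734 to 1.03). Abca8b had a fold change of 0.904 (0.823 to 0.994; edgeR unadjusted p = 0.0388, adjusted 0.172), and its close relatives Abca8a and Abca9 of 0.994 and 1.00. The coding sequences of Abca8a and Abca8b agreed at 74.4% of aligned bases with a longest shared run of 97, and those of Abca9 with either at 70.9% and 70.3%. Abca3, which packs lipids into storage vesicles, and Abca5, a lysosomal lipid transporter, had fold changes of 1.02 (0.947 to 1.1) and 0.983 (0.915 to 1.06). Abca6 was listed at 0 in AC-T 502 and saline 201, 202 and 301, and at 98 to 129 counts elsewhere. No value lay between 0 and 98, and the cause of the zeros was not tested. The fold change of Abca6 had an interval of 0.209 to 11.4.

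In subfamily B outside the P-glycoprotein pair, several members work in mitochondria. Abcb8, a subunit of a mitochondrial potassium channel, averaged 40.7 ± 1.57 CPM (AC-T) and 42.7 ± 1.31 CPM (saline; fold change 0.952, 0.901 to 1.01). Abcb10, which haem synthesis uses, ran from 29.9 to 34.0 CPM after AC-T and from 30.2 to 45.7 CPM after saline, where the highest was saline 300 (0.897, 0.776 to 1.04). Abcb6, a porphyrin transporter, had a fold change of 0.961 (0.880 to 1.05). Abcb9, a lysosomal peptide transporter, and Abcb4 had fold changes of 1.07 (0.967 to 1.19) and 1.08 (0.911 to 1.28). The peptide transporters of antigen presentation, Tap1 and Tap2, belong to this subfamily under other symbols; 0 of these 2 passed (log2 fold changes from −0.13 to 0.016), and 0 of 6 other peptide-loading genes passed.

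The sulfonylurea receptors Abcc8 and Abcc9 are regulatory subunits of ATP-sensitive potassium channels. Abcc8, the neuronal form, averaged 29.1 ± 4.48 CPM (AC-T) and 30.9 ± 2.57 CPM (saline; fold change 0.942, 0.813 to 1.09). Abcc9, known from pericytes and smooth muscle, averaged 9.50 ± 0.927 and 9.79 ± 1.29 CPM (0.970, 0.838 to 1.12). The channel pores they join, also 2 genes, had log2 fold changes of 0.042 and 0.097. Neither subunit nor pore passed.

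Subfamily D carries fatty acids into peroxisomes, except for Abcd4, which takes part in lysosomal cobalamin export. Abcd2, a carrier of very long-chain and polyunsaturated fatty acids, stood at 42.1, 34.2, 39.5, 37.2 and 37.2 CPM in the AC-T libraries and at 39.9, 41.0, 43.5, 41.3, 43.2 and 46.2 CPM in the saline libraries. AC-T 501 lay inside the saline range and the other 4 lay under it. The fold change was 0.894 (0.822 to 0.973; edgeR adjusted p = 0.0967), and without AC-T 501 the adjusted p was 0.0483. Abcd4 had a fold change of 0.896 (0.809 to 0.992; edgeR unadjusted p = 0.0374, adjusted 0.168). Abcd3, which takes up branched-chain and long-chain fatty acids, was the most abundant of the subfamily at 22.1 CPM per kilobase. It had the narrowest relative spread of all members, a coefficient of variation of 3.98% over the 11 libraries, and a fold change of 1.00 (0.940 to 1.06). None of 9 peroxisomal import and oxidation genes passed, and 1 had an unadjusted p under 0.05 in edgeR.

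The translation members of subfamilies E and F all had log2 fold changes above 0 with the main scaling, and that of Abcf3 was −0.0042 under upper-quartile scaling. Abce1, which splits ribosomes for reuse, stood at 86.5, 98.5, 94.1, 94.98 and 90.03 CPM in the AC-T libraries and at 92.0, 80.9, 85.1, 79.0, 79.1 and 85.8 CPM in the saline libraries. Saline 201 lay among the AC-T values and the other 5 lay below them. The fold change was 1.11 (1.03 to 1.20; edgeR adjusted p = 0.0833), and without saline 201 the adjusted p was 0.0384. Abcf1, which acts with the initiation factor eIF2, stood at 69.7 ± 4.05 and 64.8 ± 4.32 CPM (1.08, 0.991 to 1.17), Abcf2 at 92.1 ± 5.66 and 85.6 ± 8.21 CPM (1.08, 0.970 to 1.19), and Abcf3 at 64.2 ± 3.29 and 63.3 ± 4.75 CPM (1.02, 0.932 to 1.11). With the endothelial score as covariate the log2 fold changes of Abcf1, Abcf2 and Abcf3 were −0.017, −0.066 and −0.087, and that of Abce1 was 0.11. Leaving out AC-T 502 also put Abcf3 below 0 (−0.0015), as did leaving out mouse 302 of the saline group (−0.0029). With all of saline series 3 left out, Abcf3 was at −0.064 and Abcf2 at −0.0099. Neuron markers moved with these genes: 6 of 7 had a log2 fold change above 0 and 1, Syt1, was higher in edgeR. Their sums ran from 5852 to 7018 CPM after AC-T and from 4427 to 6210 CPM after saline. Over all 11 libraries, Pearson's r with that sum was 0.82 for Abce1, 0.77 for Abcf1 and 0.79 for Abcf2 (permutation adjusted p = 0.0607, 0.114 and 0.106). The permutations ignored treatment, so these values also carry the difference between the groups. The part of neuron RNA in the differences was not tested. Of 10 other translation factors 0 passed and 3 had an unadjusted p under 0.05 in edgeR, all higher.

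Subfamily G held 3 members. Abcg4, a sterol exporter of neurons and glia, stood at 53.2, 60.5, 55.5, 57.2 and 62.7 CPM in the AC-T libraries and at 65.2, 67.5, 65.9, 60.8, 65.6 and 57.8 CPM in the saline libraries. The lowest saline value, in mouse 302, lay inside the AC-T range, as did saline 300. The fold change was 0.906 (0.835 to 0.984; edgeR adjusted p = 0.127). Abcg1, which exports cholesterol to lipoproteins, ran from 46.2 to 61.7 CPM after AC-T and from 47.9 to 53.0 after saline (fold change 1.06, 0.963 to 1.17). Of 13 lipid acceptors and sterol regulators tested, 1 was lower and 0 higher: Lcat, the enzyme that esterifies lipoprotein cholesterol, fell to 0.781 of saline (30.8 ± 3.59 against 39.4 ± 2.96 CPM; edgeR adjusted p = 0.0197). Lcat passed in 22 of 29 alternative fits. With the thalamic score as covariate its log2 fold change was −0.18 (adjusted p = 0.874) and with the endothelial score −0.26 (adjusted p = 0.552), and it did not pass with series as a random effect or with any 1 series left out. Over all genes the thalamic fit called 1 higher and 0 lower, and the endothelial fit 4 and 2, so few genes could pass in either. Of the astrocyte markers 8 of 10 were below 0, and Aqp4 and S100b were lower. Their summed level was 5144 ± 786 CPM after AC-T and 5209 ± 483 CPM after saline (SD). A relation of Lcat to these markers was not tested.

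Genes that work beside the efflux pumps were mostly not called either. Of 10 drug-sensing regulators listed, 7 were in the table of genes and 6 were tested, so the list was not covered in full. Of those 6 tested 0 passed, with log2 fold changes from −0.11 to 0.21. Of 10 uptake carriers of the blood-brain barrier 1 was lower and 0 higher. This was Slc29a1, an equilibrative nucleoside transporter, which fell from 32.6 ± 4.63 to 22.7 ± 2.71 CPM, or 0.695 of saline (edgeR adjusted p = 0.0157). Slc29a1 passed in 23 of 29 alternative fits. Its log2 fold change was −0.12 with the thalamic score as covariate (adjusted p = 0.925) and −0.50 with the endothelial score (adjusted p = 0.433). It did not pass with series as a random effect (adjusted p = 0.0600) or without series 2, 5 or 6 (adjusted p = 0.107, 0.134 and 0.0586). Over all genes the thalamic fit called 1 higher and 0 lower, and the endothelial fit 4 and 2.

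**Figure D5:**
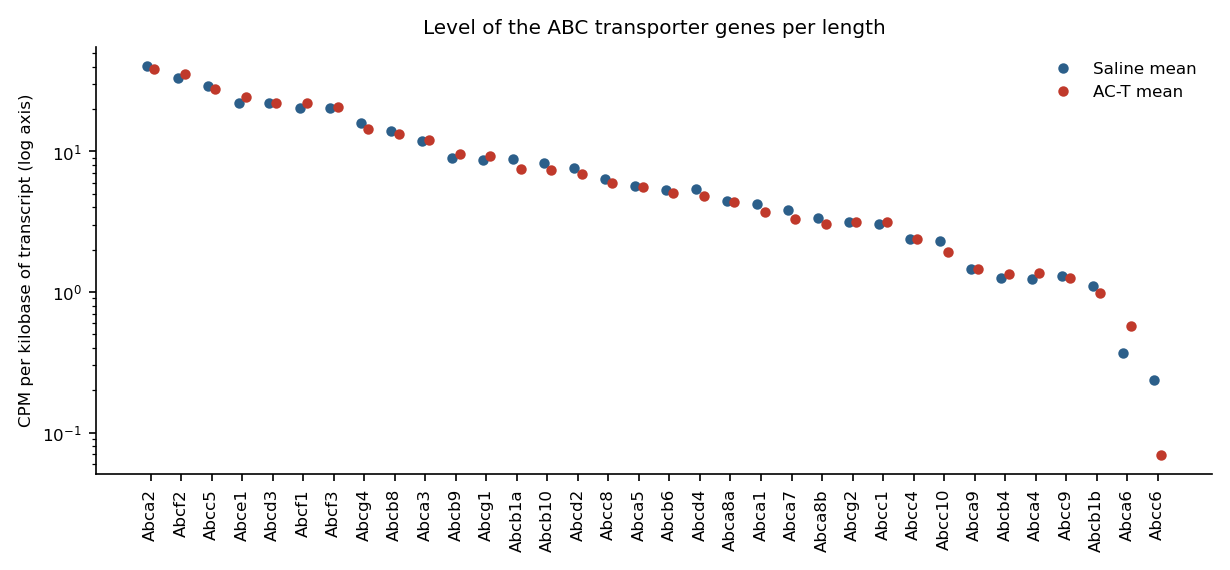
Mean CPM per kilobase of the longest protein-coding transcript (log axis) of 34 of the 36 members in saline and AC-T, in order of level. Abca2, Abcf2 and Abcc5 are highest, and the groups lie close together for all but Abca6 and Abcc6, the members listed at 0 in at least 4 libraries.

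The members spanned a wide range of levels, which the groups shared. Per kilobase of the longest transcript, Abca2 at 39.5, Abcf2 at 34.5, Abcc5 at 28.7 and Abce1 at 23.1 CPM were highest, and Abcb1b at 1.05, Abca6 at 0.458 and Abcc6 at 0.160 CPM were lowest. Abcb1a stood at 8.22, Abcg2 at 3.15, Abcc1 at 3.09 and Abcc4 at 2.38 CPM per kilobase. Subfamily F gave 22.5% of the summed level of all members with 3 genes, and subfamily A 22.3% with 10. The median coefficient of variation over the 11 libraries was 8.79%, and it was highest for Abca4 and Abca6 among the members tested, 93.2% and 79.7%.

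The series of mice were compared last, in a model with 4 means. Between saline series 3 and 2, 0 of the 35 members passed in edgeR (1.03% of all genes did), and between AC-T series 6 and 5 again 0 (0.117% of all genes). Against saline series 2, 0 members passed (11.4% of all genes), with Abcb1a at an adjusted p of 0.0537. Against saline series 3, 3 of 35 passed (7.25% of all genes). Abcb1a was lower, by a log2 fold change of −0.28, and Abcf1 and Abcf2 were higher, by 0.19 and 0.23 (edgeR adjusted p = 0.0472, 0.0451 and 0.0472). These comparisons share the AC-T libraries, and against series 2 the values of the 3 genes were −0.25, 0.039 and 0.0039.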

How the data were processed

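Expected counts per gene were deposited by the authors as 1 table; per the submitters' processing notes and design text, Dragen 4.3.6 converted base calls, FastQC 0.11.9 checked reads and Salmon 1.9.0 quantified them on GRCm39. The annotation release and the step that wrote the table are not given in the sources used here. Values were rounded to whole numbers and tested across all genes with edgeR 4.0.16 (R 4.3.3; quasi-likelihood F test, TMM factors, low counts removed by filterByExpr at 10, p-values adjusted after Benjamini and Hochberg). The test was tried on simulated counts drawn independently for each library, with no cage or series effect. That trial does not cover such effects. The SE is that of the fit, and intervals are 95%. Transcript lengths come from GENCODE M21 on GRCm38, so no gene positions on GRCm39 are given. Relations with marker levels used 100000 permutations of all 11 libraries, without regard to treatment. Alternatives included DESeq2 1.42.0 and limma-voom (limma 3.58.1). Members and gene lists were chosen with earlier results of these data known. By the naming rule, the members of each role are described whatever their values (2 are counted but not reported here), and genes of partner lists are named only where they passed. Abca4, Abca6, Abcb4, Tap1 and Tap2 fall outside that rule and were named after their values were seen. Protein sequences were not used here.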

Additional observations from a re-analysis of the deposited data

Results flagged for a closer look

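In 4 of 78 groups of libraries 1 library stood apart from the rest of its group by Dixon's test. For normally distributed values chance alone gives this in about 1 in 20 groups. Abca6 and Abcc6 were listed either at 0 or well above it, so that share does not apply to them. Abca6 was listed at 0 in AC-T 502 and at 3.23 to 4.04 CPM in the other AC-T libraries. Abcc6 stood at 1.72 CPM in AC-T 602 and was listed at 0 in the other 4. Abca8b stood at 19.6 CPM in AC-T 503 and at 22.7 to 23.9 CPM in the rest. Abcd4 stood at 10 CPM in AC-T 502 and at 11.7 to 12.3 CPM in the rest.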

How the results depend on the processing

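The 35 tested members were refitted under 29 alternatives. Of the 35, 31 were never called, and 19 had a sign change with no call on either side. The number of members higher was 1 with DESeq2 and 1 at an adjusted p under 0.1; the number lower was 1 with library totals, 3 with DESeq2 and 2 at an adjusted p under 0.1. With each library left out in turn, 0 to 1 were higher and 0 to 1 lower. With a mean count of at least 50 for membership, both counts were 0. Over all genes, 751 were higher and 550 lower, and leaving out each library gave 348 to 745 higher and 277 to 544 lower. With library totals 487 were higher. Genes higher and lower numbered 1375 and 1218 with DESeq2, 169 and 124 with series as a random effect, 1 and 0 with the thalamic covariate (in edgeR, with 0 members called), and 4 and 2 with the endothelial covariate. They numbered 395 and 154 without series 2, 112 and 205 without series 5, 215 and 194 without series 6, 1347 and 948 at an adjusted p under 0.1, and 136 and 92 under 0.01. The counts fell by over 1.5 times without AC-T 502, AC-T 602 or saline 202 in both directions, without saline 300 for genes higher and without saline 203 for genes lower. No paired analysis was possible because the groups share no mouse numbers. Scaling moved the median of all genes by at most 0.025 on the log2 scale, and 11 to 15 members lay above 0 depending on it. Abca6 and Abcc6 had values of 0 and otherwise at most 129 and 67 counts. Abca4 had 1 value of 0 and otherwise at least 65 counts. The cause of the zeros was not tested.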
